A study of Mus musculus with 19 samples.

Results

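The circadian clock genes described here are 10 genes chosen by name: Per1, Per2, Per3, Cry1, Cry2, Ciart, Nr1d1, Nr1d2, Dbp and Arntl, which is also called Bmal1. They are 10 of the 48709 genes in the count tables, and all 10 were among the 19286 genes with enough reads to be tested. RNA came from the microdissected CA1 region of the hippocampus of male C57B/6J mice that were housed singly. The 3 groups were young mice aged 3 months (n = 6), old control mice aged 16.5 months (n = 6) and old anti-miR-mix mice aged 16.5 months (n = 7). All 3 groups had lipid nanoparticles injected on both sides into the dorsal hippocampus. Those of the young and old control mice carried control oligonucleotides, and those of the old anti-miR-mix mice carried inhibitors of miR-148a-3p, miR-146a-5p and miR-181a-5p. Mice treated in this way were trained in a water maze, and whether the sequenced animals were among them is not given in the sources used here. The hour of dissection is not given in the sources used here. No library of untreated mice and no young anti-miR-mix group was analysed here.

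The molecular clock is a feedback loop that runs in most cells of the body, the hippocampus included. Arntl and its partner Clock form a transcription factor that binds E-box sequences and switches on the Per and Cry genes, Ciart, Nr1d1, Nr1d2 and Dbp, and the PER and CRY proteins then hold that factor back. The Nr1d1 and Nr1d2 proteins (REV-ERBs) repress Arntl, so that Arntl RNA runs in the opposite phase to Dbp, Nr1d1 and the Per genes over the day, while Cry1 follows the Per genes with a delay. Dbp and Nr1d1 are among the transcripts that swing most widely over the day in most tissues, which is why this set is read for the hour at which tissue was taken.

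Sequence upstream of the start sites shows which of the genes carry the elements of this loop close by. A window from 250 bases before to 50 bases after each RefSeq start site (GRCm38.p6) was held for 9 of the 10 genes, with 11 windows in all, and Per2 had none. The E-box (CACGTG) lay in 7.15% of all 32851 windows of this length. Among the members it lay 3 times in the Ciart window and once each in the Cry1 window and in 1 of 2 Per1 windows. The D-box (TTANGTAA, on either strand), which Dbp itself binds, lay in 2.32% of all windows and 2 times in the Per3 window. An element bound by the REV-ERB proteins and their ROR rivals (TAGGTCA, on either strand) lay in 2.61% of all windows and among the members in 1 of 2 Arntl windows, 31 bases into the transcript. The cAMP response element (TGACGTCA) lay in 1.79% of all windows and in none of the 11. Sequence outside these windows and variants of these letters were not searched. A gene without a match here may thus still carry the element elsewhere or in another form. The stretches upstream of the start that hold these matches are printed in the direction of transcription, with the matches in capitals.
Ciart, minus strand, chr3:95882255-95882356: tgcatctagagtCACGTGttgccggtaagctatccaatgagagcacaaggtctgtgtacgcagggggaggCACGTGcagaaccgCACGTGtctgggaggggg
Cry1, minus strand, chr10:85185097-85185126: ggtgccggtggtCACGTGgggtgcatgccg
Per1, plus strand, chr11:69098771-69098800: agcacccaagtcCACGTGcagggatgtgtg
Per3, minus strand, chr4:151044804-151044882: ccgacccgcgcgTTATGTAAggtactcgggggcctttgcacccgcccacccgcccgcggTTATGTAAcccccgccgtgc

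Sequence also shows where the inhibited miRNAs could pair with the members. A miRNA pairs with its targets mainly through its seed, bases 2 to 8, which are in capitals in the mature mouse sequences (RefSeq).
mmu-miR-181a-5p: aACAUUCAacgcugucggugagu
mmu-miR-146a-5p: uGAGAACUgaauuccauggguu
mmu-miR-148a-3p: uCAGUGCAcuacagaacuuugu
The complement of the miR-181a-5p seed lay in the longest annotated 3′ UTR of 18.1% of the 15351 tested genes that have one (GENCODE M21), that of miR-146a-5p in 12.4% and that of miR-148a-3p in 14.9%. Of the 10 members, 5 held a miR-181a-5p seed match: Per2, Per3, Cry1, Cry2 and Nr1d2, the last with 2. Per2 also held the only miR-146a-5p match, and no member held a match for miR-148a-3p. The 3′ UTRs of these 5 genes were between 612 and 2631 bases long, and those of the others, Per1, Arntl, Dbp, Nr1d1 and Ciart, between 261 and 803 bases. The sites are printed in the direction of transcription with the seed match in capitals, and all of these genes lie on the minus strand (GRCm38).
Per2, miR-181a-5p, chr1:91416350-91416378: ctcttctctctTGAATGTttaccatcagc
Per2, miR-146a-5p, chr1:91416931-91416959: ctgctgccctgAGTTCTCcagtttgcagg
Per3, miR-181a-5p, chr4:151003884-151003912: tgttgtagactTGAATGTctacataaata
Cry1, miR-181a-5p, chr10:85132140-85132168: taactttttaaTGAATGTcatataggaca
Cry2, miR-181a-5p, chr2:92405625-92405653: tctcatgatccTGAATGTtgcctgcgctg
Nr1d2, miR-181a-5p, chr14:18206422-18206450: tataatcacacTGAATGTtagactttttc
The second Nr1d2 match lies at the very end of its 3′ UTR. A seed match is a run of letters and not a shown target.

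Between 26653511 and 38908947 reads were assigned to genes in each library. Levels are given as log2 CPM, the log2 of read counts scaled to the size of the library (CPM) by the TMM method. Tests were edgeR quasi-likelihood tests over all 19286 genes, and a gene is called where its Benjamini-Hochberg adjusted p is under 0.05. The labels number the libraries within a group without stating that each came from 1 animal, so p-values measure the spread between these libraries. Old control libraries 5 and 6 were more alike than any other pair of one group, with a chi-square per degree of freedom of 1.89 against 4.82 for the next pair. Their difference was above sampling noise, which would give about 1, and they were kept apart. That value does not show whether they came from 1 animal. Joined as 1 library, edgeR calls over all genes fell from 514 to 313 between old control and young. Between old anti-miR-mix and old control they fell from 129 to 33. Per2 stayed called between old control and young (-0.39, edgeR adjusted p = 0.0116). The markers of CA1 pyramidal cells (5 genes) summed to 710 to 973 CPM in the 19 libraries. Those of the neighbouring CA3 field (3 genes) summed to 12.9 to 21.4 CPM, dentate markers (5 genes) to 44.6 to 110 CPM and thalamic markers (5 genes) to 158 to 196 CPM. CA1 markers were thus the highest of these lists in every library. The lists differ in their genes and the abundance of these, so the sums do not give shares of tissue. Choroid plexus markers (5 genes) summed to 14.6 to 106 CPM, and Folr1 among them, with a mean of 5.37 reads, was too low to be tested.

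All 10 clock genes had at least 333 reads in every library. Per length of transcript, Nr1d1 had the highest level, 37.2 ± 2.26 RPKM (read counts scaled to library size and exon length, mean ± SD, n = 19 libraries of all groups). Nr1d2 at 24.4 ± 1.79 RPKM, Cry2 at 23.0 to 27.4 RPKM and Per1 at 21.4 to 41.7 RPKM came next and did not differ beyond their spread. Dbp lay at 17.7 ± 1.00 and Per2 at 10.8 ± 1.52 RPKM. Ciart at 7.66 ± 0.716 and Per3 at 7.59 ± 0.687 RPKM again lay within each other's spread. Cry1 at 4.96 ± 0.515 and Arntl at 4.42 ± 0.402 RPKM were lowest, with overlapping ranges. In reads, the members ran from a mean of 524 per library for Cry1 to 4997 for Cry2, so that counting error was small for each.

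By variability, 6 of the 10 members lay above the median of genes with a mean of at least 100 reads and 4 below it. The SD within groups was widest for Per1, at 0.22 on the log2 scale, which placed it at percentile 91.2 of the 12780 genes with a mean of at least 100 reads. Cry1 (0.14), Ciart (0.14), Per2 (0.13), Arntl (0.13) and Per3 (0.12) lay between percentiles 60.5 and 74.2. Dbp, Nr1d2, Nr1d1 and Cry2 had SDs of 0.08 to 0.09 and lay between percentiles 30.5 and 38.4, below the median gene. Against all tested genes, Per1 alone lay above the median, at percentile 64.4. The other members then ran from percentile 20.2 (Cry2) to 49.4 (Cry1), so the split depended on the genes compared. Among all 19 libraries the highest Dbp level was 1.24-fold the lowest, and the same ratio was 1.23 for Nr1d1, 1.20 for Cry2 and 1.28 for Nr1d2. It was 1.42 for Arntl, 1.43 for Cry1, 1.47 for Per3, 1.56 for Ciart, 1.76 for Per2 and 1.95 for Per1.

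**Figure D1:**
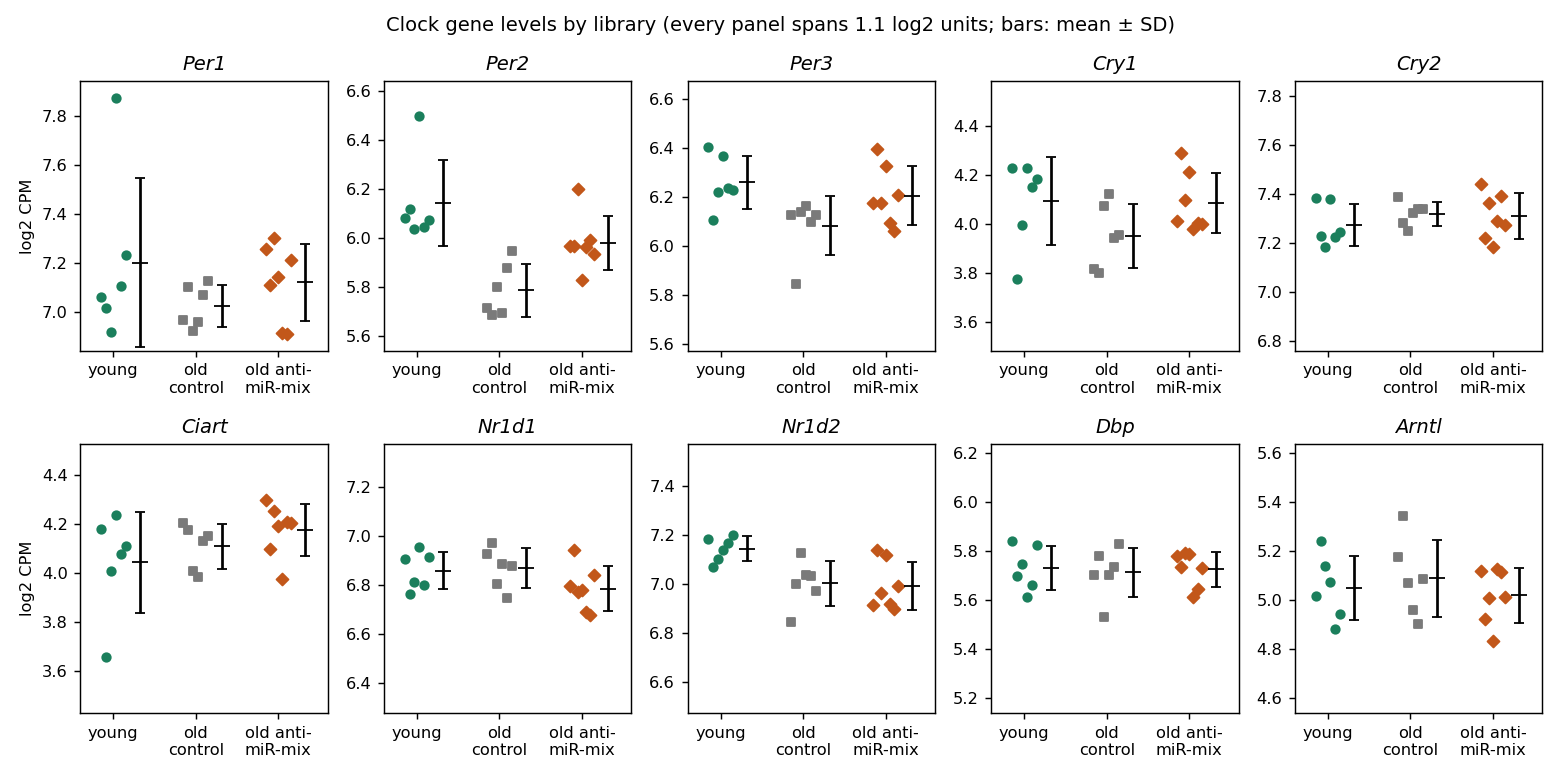
Levels of the 10 clock genes (log2 CPM) in the 3 groups; each point is 1 library, black bars give the mean ± SD, and every panel spans the same height on the log2 scale. Per2 is the gene whose old control libraries all lie below the young ones, and the Dbp points of the 3 groups lie at the same height.

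Per2, a repressor of the loop that also responds quickly to neuronal activity and hormones, was the clock gene that differed between old control and young mice. Its log2 CPM in young libraries ran from 6.04 to 6.50 with a median of 6.08. In old control libraries it ran from 5.68 to 5.95 with a median of 5.76. Every old control library was thus below every young one. The fitted difference was -0.36 (SE 0.073, 0.778 of the young level, edgeR adjusted p = 0.00974). The other 9 members were not called, so 1 of 10 was called where 2.67% of all tested genes were. Groups that did not overlap were found for 1 of 10 members and for 2.54% of all genes. With each of the 19 libraries left out in turn Per2 was called every time, at -0.40 to -0.28. The value nearest 0 came without young library 4, whose Per2 level of 6.50 stood apart from the other 5 young libraries (adjusted p = 0.0123 without it). Processing group is a number per library recovered from the deposited log2 values and described under the processing. With it as a factor the difference was -0.31 (adjusted p = 0.0376). The call was lost in 2 of 32 alternatives, a replicate block with processing group as a linear term (-0.30, adjusted p = 0.166) and the summed level of oligodendrocyte markers as a covariate (-0.30, adjusted p = 0.113).

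Several of the other members had lower values in old control than in young libraries without passing the test. Per3 had log2 CPM from 6.11 to 6.40 (median 6.23) in young and from 5.84 to 6.16 (median 6.13) in old control libraries. Its difference was -0.18 (SE 0.062, edgeR adjusted p = 0.126). Nr1d2, the second REV-ERB, ran from 7.07 to 7.20 (median 7.15) in young and from 6.84 to 7.13 (median 7.02) in old control libraries. Its difference was -0.14 (SE 0.048, adjusted p = 0.116). In both genes the groups overlapped. Per1 gave -0.21 with an SE of 0.12 (adjusted p = 0.347) and -0.04 without young library 4, and Cry1 gave -0.15 with an SE of 0.079 (adjusted p = 0.328). The median over the 10 members was -0.08, beside 0.01 over all tested genes.

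Of the members that oppose each other in phase, Dbp, Nr1d1 and Arntl differed by less than 1 SE between old control and young, unlike Per2. Dbp, an output of the loop, ran from 5.61 to 5.84 (median 5.72) in young and from 5.53 to 5.83 (median 5.72) in old control libraries, a difference of -0.02 (SE 0.049). Nr1d1 ran from 6.77 to 6.96 (median 6.86) in young and from 6.75 to 6.97 (median 6.88) in old control libraries, a difference of 0.01 (SE 0.047). Arntl ran from 4.88 to 5.24 (median 5.05) in young and from 4.90 to 5.34 (median 5.08) in old control libraries, a difference of 0.04 (SE 0.071). In each of the 3 genes the ranges lay nearly on top of each other. Cry2, the second cryptochrome, gave 0.04 (SE 0.046) and Ciart, a repressor of the Arntl and Clock factor, 0.05 (SE 0.076). The log2 CPM of Dbp minus that of Arntl, which widens or narrows when opposite phases shift, was 0.68 ± 0.17 in young, 0.62 ± 0.17 in old control and 0.71 ± 0.16 in old anti-miR-mix libraries (mean ± SD). For Nr1d1 minus Arntl it was 1.81 ± 0.17, 1.78 ± 0.10 and 1.77 ± 0.18, and for Per2 minus Arntl 1.09 ± 0.20, 0.70 ± 0.23 and 0.96 ± 0.13. Per3 minus Arntl was 1.21 ± 0.20, 0.99 ± 0.26 and 1.19 ± 0.22, and Nr1d2 minus Arntl 2.09 ± 0.18, 1.91 ± 0.21 and 1.97 ± 0.21. The means of Dbp, Per2, Per3 and Nr1d2 minus Arntl were thus lowest in old control libraries, unlike that of Nr1d1 minus Arntl. No test of these differences was made. The part of the hour of dissection in these values was not tested, since no time is known for any library.

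Between old anti-miR-mix and old control mice no clock gene was called by edgeR, DESeq2 or limma, where 0.669% of all tested genes were called by edgeR. At an unadjusted p under 0.05 the count was 1 of 10, Per2, beside 10.5% of all genes, and no member had groups that did not overlap, beside 0.498% of all genes. Per2 ran from 5.83 to 6.20 (median 5.97) in old anti-miR-mix libraries, between the medians of the other groups. The difference from old control was 0.19 (SE 0.070, edgeR adjusted p = 0.290), all 7 libraries lay above the old control median of 5.76, and the ranges overlapped. The other genes with a miR-181a-5p seed match gave 0.13 (SE 0.076) for Cry1, 0.12 (SE 0.060) for Per3, -0.01 (SE 0.044) for Cry2 and -0.01 (SE 0.046) for Nr1d2. Those without one gave 0.10 (SE 0.11) for Per1, 0.07 (SE 0.073) for Ciart, 0.01 (SE 0.047) for Dbp, -0.07 (SE 0.069) for Arntl and -0.08 (SE 0.045) for Nr1d1. Both sets thus held values on either side of 0 and none that passed the test.

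Old anti-miR-mix and young mice likewise gave no called member by edgeR, with 6.20% of all tested genes called, 2.42% of all genes with groups that did not overlap and no such member. At an unadjusted p under 0.05 the count was 2 of 10, Per2 and Nr1d2, beside 19.6% of all genes. Nr1d2 lay nearest the threshold. It ran from 6.90 to 7.14 (median 6.97) in old anti-miR-mix libraries and the difference from young was -0.15 (SE 0.046, edgeR adjusted p = 0.0558). DESeq2 gave -0.16 with an adjusted p of 0.0235, and 9 of 32 alternative settings called it. Per2 gave -0.17 (SE 0.070, adjusted p = 0.170). Dbp gave -0.01 (SE 0.047), Nr1d1 -0.07 (SE 0.045) and Arntl -0.03 (SE 0.069). This comparison and the 2 others share their groups pairwise, so the values of a member in them are not independent of each other.

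**Figure D2:**
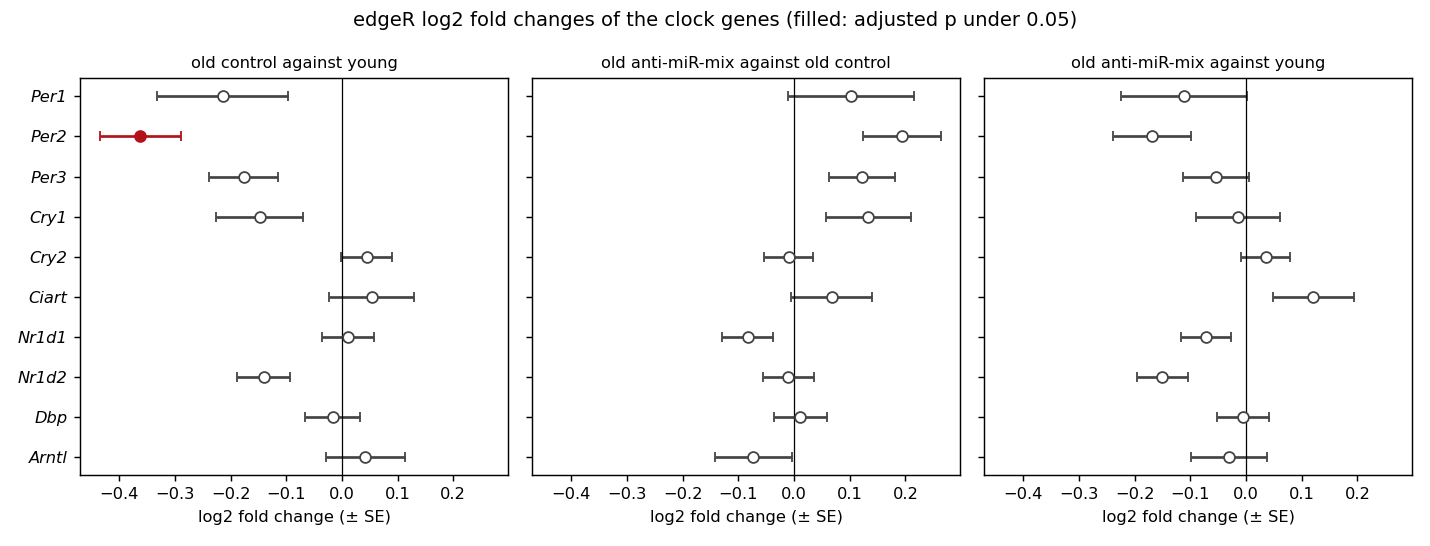
Differences between groups on the log2 scale with their standard errors (horizontal axis) for the 10 clock genes (vertical axis) in the 3 comparisons; filled red points passed an adjusted p of 0.05. Per2 in old control against young, at -0.36, is the one filled point.

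A further 22 genes of the clock, from the partners of Arntl to the kinases and ubiquitin ligases that set the life of the PER and CRY proteins, were followed in the same way. None was called between old control and young, with 6 at an unadjusted p under 0.05 (18.1% of all genes were). Between old anti-miR-mix and old control none was called either, with 1 at an unadjusted p under 0.05 (10.5% of all genes were). Old anti-miR-mix against young called 1 of 22, Clock, the partner of Arntl, where 6.20% of all genes were called. Clock had a mean log2 CPM of 7.09 ± 0.026 in young, 7.03 ± 0.076 in old control and 6.95 ± 0.078 in old anti-miR-mix libraries. Its difference was -0.14 (SE 0.038, edgeR adjusted p = 0.0309), the groups overlapped, and 6 of 32 alternative settings put it above the threshold (adjusted p up to 0.0675). In the same comparison 4 of 5 microglial and 2 of 5 astrocyte markers were called higher, 1 of 5 thalamic markers (Prkcd) higher and 1 of 5 CA1 markers (Wfs1) lower, and their part in the value of Clock was not tested. Tef and Hlf, which bind the same D-box as Dbp, were lower in old control than in young mice by -0.15 (adjusted p = 0.0776) and -0.25 (adjusted p = 0.118) and were not called. The median over the 22 genes was -0.02 for old control and -0.02 for old anti-miR-mix against young.

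Of the other response lists, glucocorticoid genes alone had calls between old control and young. Of 8 genes that respond to glucocorticoids, a set that includes the best known hormone targets in brain, 2 were called lower, where 2.67% of all genes were called: Tsc22d3 at -0.61 (SE 0.10, edgeR adjusted p = 0.00295) and Sgk1 at -0.84 (SE 0.22, adjusted p = 0.0455, called in 14 of 32 alternative settings). By fitted value 6 of the 8 were lower and 2 higher. Mean log2 CPM was 5.61 in young and 5.66 in old control libraries for Fkbp5, and 3.71 and 3.76 for Pdk4. The summed level of the list ran from 459 to 617 CPM in young and from 411 to 423 CPM in old control libraries, so these sums did not overlap. It ran from 393 to 544 CPM in old anti-miR-mix libraries, where Tsc22d3 was at -0.44 (adjusted p = 0.00936) and Klf9 at -0.16 (adjusted p = 0.0453, called in 11 of 32 alternative settings) against young. None of 11 immediate early genes, which neurons switch on within minutes of firing, and none of 6 temperature-responsive genes was called in any of the 3 comparisons. Their count at an unadjusted p under 0.05 was 0 in each comparison for the first list. For the second it was 2 for old control against young, 0 for old anti-miR-mix against old control and 3 for old anti-miR-mix against young. Over all genes these shares were 18.1%, 10.5% and 19.6%.

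Some cell type markers were called between old control and young too, where 2.67% of all tested genes were. All 5 oligodendrocyte markers had lower values in old control than in young mice and 3 were called, with a median of -0.43. Their summed level ran from 6792 to 10495 CPM in young, from 5891 to 7119 in old control and from 6013 to 9067 in old anti-miR-mix libraries. In bulk tissue fewer cells of a type and less RNA per cell cannot be told apart. With this level as a covariate Per2 was at -0.30 (SE 0.089, edgeR adjusted p = 0.113), and Per1 turned to 0.04 (SE 0.12). Within groups the correlation of the oligodendrocyte level with Per2 was weak (r = 0.21, permutation p = 0.449, rho = -0.05, permutation p = 0.858, n = 19). It was higher for Per1 (r = 0.59), Nr1d2 (0.48), Per3 (0.48), Cry1 (0.47) and Nr1d1 (0.44). For Ciart r was 0.15, for Dbp -0.14, for Cry2 -0.19 and for Arntl -0.30. The part of this level in the group differences of these genes was not tested otherwise. Among CA3 markers 1 of 3 (Coch) was called lower, and among microglial markers 1 of 5 (Cx3cr1) was called higher. No CA1, dentate, thalamic, choroid plexus, astrocyte, endothelial or blood marker was called between old control and young.

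From library to library within a group, Per1 followed the immediate early genes most closely of the lists followed here, though not these alone. Per1 ran from 6.92 to 7.88 in young libraries, where the highest value, that of young library 4, was followed by 7.23. The summed level of the 11 immediate early genes ran from 457 to 1810 CPM in the young group and was highest in the same library. It ran from 645 to 925 CPM in old control and from 573 to 1033 CPM in old anti-miR-mix libraries. The correlation of Per1 with this level, both as deviations from the group means of log2 values, was r = 0.92 (permutation p = 0.00016, rho = 0.87, permutation p = 7.0e-05, n = 19), and r = 0.82 without the 2 libraries farthest from the median. For Per2 it was r = 0.67 (permutation p = 0.0394) but rho = 0.34 (permutation p = 0.162), and r = 0.31 without those 2 libraries, so that the Per2 relation rested on them. Per1 and Per2 themselves gave r = 0.72 (permutation p = 0.0219), rho = 0.41 (permutation p = 0.0849) and r = 0.22 without the 2 libraries farthest in Per1. These relations were picked after the values were seen. Per1 also correlated with the summed levels of CA3 markers (r = 0.66), temperature-responsive genes (0.62), oligodendrocyte markers (0.59) and glucocorticoid genes (0.56). With the remaining lists its r lay between -0.34 and 0.34. For Per2 r was 0.70 with the temperature-responsive level, and between -0.40 and 0.43 apart from this and the immediate early level. No test of these values was made.

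A fit of each gene on this level with the groups in the model gave the same order. Per1 had a slope of 0.45 log2 units per log2 unit (SE 0.046, edgeR adjusted p = 2.25e-05), and Per2 one of 0.20 (SE 0.051, adjusted p = 0.0830). Per1 was the 1 member called of 10, where 0.451% of 19275 genes were. In the same fit 3 of 6 temperature-responsive genes were called, with positive slopes, and none of 8 glucocorticoid genes. The slopes of Ciart (0.10), Nr1d1 (0.07), Cry1 (0.07), Per3 (0.03), Nr1d2 (0.03), Cry2 (0.02), Arntl (-0.01) and Dbp (-0.01) were not called. Without young library 4 the slope of Per1 was 0.34 (SE 0.081), no longer called over all genes (adjusted p = 0.875), and the calls over all genes fell from 87 to 3. Among the other 22 clock genes 1 was called, Nfil3, a D-box repressor, at 0.48 (SE 0.074, adjusted p = 0.00260). The immediate early and CA1 marker levels were set against the clock genes after their values were seen. With the immediate early level as a covariate the difference in Per2 between old control and young mice was -0.36 (SE 0.055, adjusted p = 0.000796), as large as without it, and Per1 passed the test at -0.20 (SE 0.051, adjusted p = 0.0289).

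**Figure D3:**
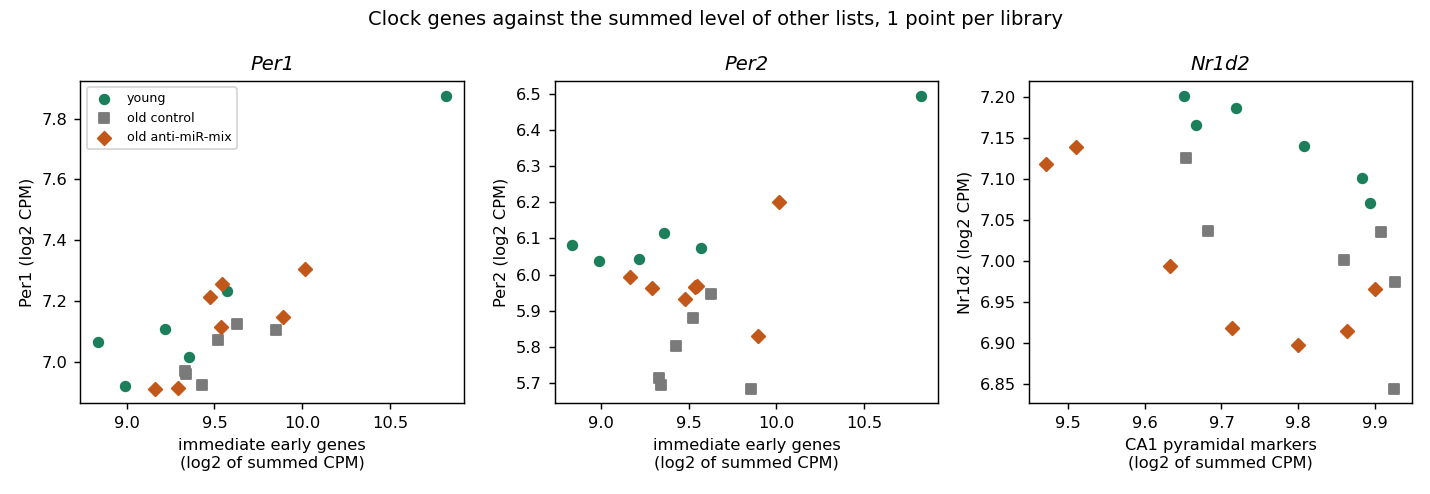
Per1 and Per2 (log2 CPM) against the summed level of 11 immediate early genes, and Nr1d2 against the summed level of 5 CA1 pyramidal markers (both log2 of summed CPM), with 1 point per library and a symbol per group. Young library 4 lies at the upper right for Per1 (7.88) and Per2 (6.50), and Nr1d2 falls as the CA1 markers rise.

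Arntl and its targets were then compared within groups, where opposite phases would give opposite deviations. Cry1 had the steepest fit on Arntl, with a slope of -0.81 log2 units per log2 unit of Arntl (SE 0.19, edgeR adjusted p = 0.0266), and was called. Per3 followed at -0.59 (SE 0.16, adjusted p = 0.0524) and Nr1d2 at -0.41 (SE 0.13, adjusted p = 0.0835). These fits called 1 of 9 members and 2.89% of 19285 genes. The deviations of Cry1 and Arntl correlated at r = -0.75 (permutation p = 0.00051, rho = -0.73, permutation p = 0.00123, n = 19) and at r = -0.73 without the 2 libraries farthest from the Arntl median. For Per3 the values were r = -0.67 (permutation p = 0.00392), rho = -0.64 (permutation p = 0.00559) and r = -0.51 without those libraries. For Nr1d2 they were r = -0.65 (permutation p = 0.00455), rho = -0.76 (permutation p = 0.0005) and r = -0.70.

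Dbp and Nr1d1, which oppose Arntl plainly in other tissues, were not called in this fit. Dbp had a slope of -0.08 on Arntl (SE 0.16) with r = -0.11 (permutation p = 0.675, rho = -0.16, permutation p = 0.542), and Nr1d1 a slope of 0.01 (SE 0.16) with r = 0.01 (permutation p = 0.962, rho = 0.02, permutation p = 0.949). The value of Nr1d1 moved with the processing, to r = -0.26 with the processing group removed and r = -0.41 on the deposited log2 values. Others moved too. With the processing group removed, r with Arntl was -0.28 for Dbp, -0.46 for Ciart, -0.80 for Per3 and -0.78 for Cry1. It was -0.68 for Nr1d2, -0.15 for Per1, 0.17 for Per2 and 0.09 for Cry2. Per1 had a slope of -0.12 (SE 0.39), Per2 of 0.03 (SE 0.24), Ciart of -0.15 (SE 0.25) and Cry2 of 0.14 (SE 0.15). Of the 45 pairs among the 10 genes, 6 correlated above 0.5 and 4 below -0.5, as deviations within groups. The share over pairs of other genes was not computed. Among 12770 genes outside the members, the middle 95% of correlations with Arntl lay between -0.61 and 0.71. With Dbp it lay between -0.52 and 0.48. Cry1 moved with Per3 (r = 0.79, permutation p = 2.0e-05, rho = 0.81, permutation p = 3.0e-05) and with Nr1d2 (r = 0.76, permutation p = 0.0001, rho = 0.75, permutation p = 0.00033). Both pairs were picked from the 45 after the values were seen. Their p-values were not adjusted for that choice and so describe these pairs only. Dbp stood alone, with correlations between -0.17 and 0.36 with the other 9 genes. With processing group as a factor the slopes on Arntl were -0.94 for Cry1 (SE 0.22, edgeR adjusted p = 0.0267) and -0.78 for Per3 (SE 0.16, adjusted p = 0.0164), both called. With a replicate block neither was called (adjusted p = 0.0796 for Cry1 and 0.0537 for Per3), and Cry1 was not called without young library 2, old control library 2 or 4, or old anti-miR-mix library 4 (adjusted p up to 0.114).

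**Figure D4:**
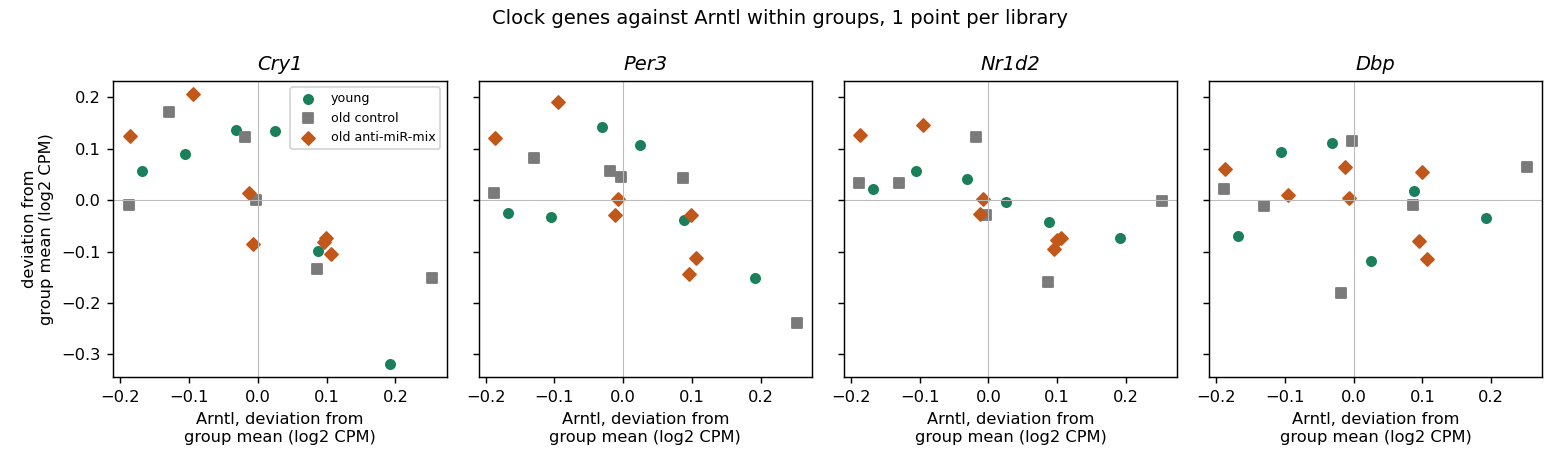
Deviations of Cry1, Per3, Nr1d2 and Dbp from their group means (vertical axes) against those of Arntl (horizontal axes), both in log2 CPM, with 1 point per library. Cry1, Per3 and Nr1d2 fall as Arntl rises (r = -0.75, -0.67 and -0.65) and Dbp does not (r = -0.11).

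The CA1 marker level moved with the same genes. Nr1d2 correlated with the summed level of the 5 CA1 pyramidal markers at r = -0.82 (permutation p = 4.0e-05, rho = -0.82, permutation p = 0.00011, n = 19), and at r = -0.73 without the 2 libraries farthest from the median of that level. Cry1 correlated with it at r = -0.67 (permutation p = 0.00149, rho = -0.60, permutation p = 0.00809) and Arntl at r = 0.60 (permutation p = 0.00902, rho = 0.61, permutation p = 0.00831). In the fit on this level 3 of 10 members were called, beside 13.7% of 19281 genes. They were Nr1d2 at -0.50 (SE 0.10, edgeR adjusted p = 0.00194), Cry1 at -0.69 (SE 0.19, adjusted p = 0.0213) and Arntl at 0.58 (SE 0.19, adjusted p = 0.0424). The call of Arntl held in 11 of 21 alternatives and in 9 of the 19 fits that left out 1 library (adjusted p up to 0.121), and that of Cry1 in 20 of 21. With the CA1 level as a covariate in the fit on Arntl, Cry1 was at -0.59 (SE 0.23, adjusted p = 0.718), and edgeR called 0 of 19285 genes, with 1178 at an unadjusted p under 0.05. Of the other 22 clock genes 4 were called on the CA1 level, beside the same 13.7% of all genes. Rora (-1.15) and Hlf (-0.88) fell with it, and Bhlhe40 (0.76) and Csnk1d (0.42) rose. Rora is also among the 5 thalamic markers used here. The correlations with Arntl after removal of the CA1 level were -0.59 for Cry1, -0.54 for Per3 and -0.36 for Nr1d2. The same covariate left Per2 at -0.39 (SE 0.067, adjusted p = 0.00280) in old control against young. It put Nr1d2 at -0.19 (SE 0.032, adjusted p = 0.000756) in old anti-miR-mix against young, past the threshold. How much CA1 tissue each dissection held was not tested otherwise.

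**Figure D5:**
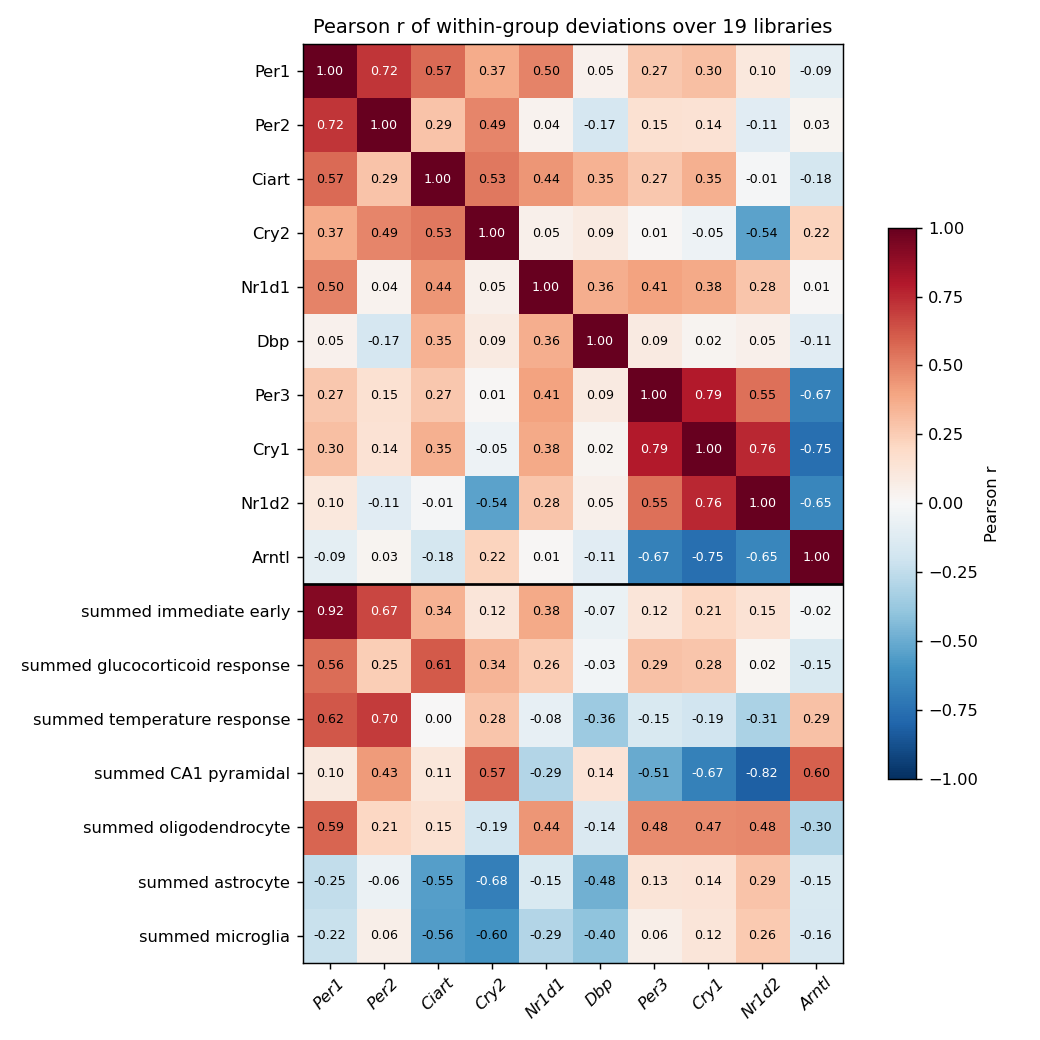
Pearson correlations of deviations from group means over 19 libraries, among the 10 clock genes (upper block) and between them and the summed level of 7 other lists (lower rows); red is positive and blue negative. Per3, Cry1 and Nr1d2 form a block opposed to Arntl, Per1 goes with the immediate early genes (0.92), and Dbp stays between -0.17 and 0.36 with the other clock genes.

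Across the whole transcriptome the genes most like Dbp and Arntl were taken from 12770 genes with a mean of at least 100 reads, by the Pearson correlation of within-group deviations over 19 libraries. For Dbp the highest were Pirt (r = 0.76), Man2a1 (0.74), Tmem200c (0.73), Mrps34 (0.71), Ret (0.70) and Hectd3 (0.70), and the lowest Rnf20 (-0.80), Naa16 (-0.77), Aass (-0.76) and Nvl (-0.74). The middle 95% of all these genes lay between -0.52 and 0.48. For Arntl the highest were Ap1ar (0.87), Sept6 (0.86), Cap1 (0.86), Inka2 (0.85), Cdc40 (0.85) and Gm13446 (0.85), and the lowest Dnmt1 (-0.79), Racgap1 (-0.79), Ptch1 (-0.79) and Fzd1 (-0.78). For Arntl the middle 95% was wider, from -0.61 to 0.71. None of the other 22 clock genes was among these. These genes were picked for their correlation, so no test of it is given.

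The counts of some members hold a doubt about strand. The library kit does not mark the strand of the RNA, and 263 of the 3077 exon bases of Nr1d1 (8.55%) overlap exons of Thra, a thyroid hormone receptor gene on the other strand with a mean of 22626 reads per library. For Dbp 539 of 2993 exon bases overlap Sphk2 on the other strand, which had a mean of 745 reads, and for Cry2 295 of 6320 bases (4.67%) overlap D930015M05Rik. Arntl shares 33 of 7523 bases with Gm45355. Reads from these stretches cannot be assigned to 1 strand. Per1, Per2, Per3, Cry1, Ciart and Nr1d2 share no exon base with another annotated gene. By GRCm38 and GENCODE M21 the called gene Per2 (ENSMUSG00000055866) lies at chr1:91415982-91459324 on the minus strand.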

How the data were processed

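Polyadenylated RNA of 19 libraries was sequenced as single-end reads, and per the labels and methods the authors aligned them with STAR 2.5.2b to mm10 and counted reads per gene with featureCounts of Subread 1.5.1. The deposited count files hold raw counts for 48709 genes. The authors also deposited log2 values of 18761 genes, which could be rebuilt from the counts as log2 CPM less a slope per gene on a number from 1 to 4 per library, called processing group here (largest residual 3.4e-08). What that number stands for is not given in the sources used here. Titles of young and old control libraries name the anti-miR-mix, while their descriptions and the methods give control oligonucleotides.

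Genes with at least 5 counts in at least 50% of libraries were tested with edgeR 4.0.16 (R 4.3.3, TMM, quasi-likelihood) in 1 fit of 19 libraries, adjusted over all 19286 genes. Log2 CPM used a prior count of 2. Alternatives were DESeq2 1.42.0, limma 3.58.1 on the deposited log2 values, and those named in the closing section. Permutation p-values are two-sided, from 100000 permutations within groups, of which 9 relations beside those with Arntl were chosen after the values were seen. Fits were tested on simulated data. Symbols and coordinates came from GENCODE M21 (GRCm38) and promoters and miRNAs from RefSeq.

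Members, lists and tests were chosen with earlier results of these data known. Named by rule were all members, listed genes past the threshold, and the 6 highest and 4 lowest correlations with Dbp and with Arntl; Tef and Hlf, and the individual marker genes, were named after their values were seen. Whether replicate numbers pair libraries was not settled. Of 18 same-numbered pairs, 9 had deviations that correlated above 0.1, with a range from -0.46 to 0.44. Differently numbered pairs were not compared, so these values cannot decide it. Library totals ran from 26653511 to 38908947 reads, and counting error is small at these depths.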

Additional observations from a re-analysis of the deposited data

Results flagged for a closer look

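Dixon's ratio, the gap of an extreme library to the next one over the range of its group, was computed for each of the 10 clock genes in each of the 3 groups, 30 in all, and 3 passed the 95% limit for 6 libraries. Chance alone would flag about 5% of such groups. Young library 4 was flagged for Per1 (7.88 log2 CPM, next 7.23, ratio 0.674) and for Per2 (6.50 log2 CPM, next 6.12, ratio 0.828), and it also had the highest immediate early level of the 19 libraries. Old control library 2 was flagged for Per3 (5.84 log2 CPM, next 6.10, ratio 0.786), and it had the highest Arntl level (5.34). Without young library 4 the Per2 difference between old control and young mice was -0.28 (edgeR adjusted p = 0.0123). The causes were not tested.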

How the results depend on the processing

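Of the 59 log2 differences and slopes of members, 6 were called, and none of the 6 changed sign in any alternative. Over 1650 alternative values 89 had the other sign, 88 of them of results within 1 SE of 0, and none of the 89 was called. The remaining one was Per1 in old control against young with the oligodendrocyte level as a covariate, at 0.035.

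The 1 member called between old control and young, Per2, was also called in 29 of 32 alternatives as the single one, with 1 call without each of the 19 libraries. The count was 0 with a replicate block and processing group as a linear term together (Per2 -0.30, edgeR adjusted p = 0.166) and 0 with the oligodendrocyte level as a covariate. It was 2 with the immediate early level as a covariate, when Per1 was added. The replicate block alone gave Per2 -0.36 (adjusted p = 0.0260) and left the count at 1. The count between old anti-miR-mix and old control was 0 in all 32 alternatives. Against young it was 1 in place of 0 with DESeq2 size factors, with DESeq2, with processing group as a factor and with the CA1 or the immediate early level as a covariate, and 0 to 1 without a library. The gene was Nr1d2 in each, except Per2 with the immediate early level.

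The count of members associated with Arntl was least stable. It was 2 with DESeq2 size factors, with processing group as a factor or linear term, with old control libraries 5 and 6 as 1, and with the replicate block and linear term together. It was 3 with DESeq2, 0 with the replicate block and 0 with the CA1 level as a covariate. It ran from 0 to 2 without a library, being 0 without young library 2, old control library 2 or 4, or old anti-miR-mix library 4. For the immediate early level the count ran from 0 (without young library 4) to 2, and for the CA1 level from 1 (without old anti-miR-mix library 2) to 4. The causes were not tested. The calls over all genes ranged more widely than the members, against 514 from 140 (replicate block and linear term) to 914 (DESeq2) between old control and young. Against 129 they ran from 0 (edgeR, oligodendrocyte level as a covariate, 959 at an unadjusted p under 0.05) to 267 (DESeq2) between old anti-miR-mix and old control, with 9 under processing group as a factor. The covariate fits and the fits on the immediate early and CA1 levels were chosen after seeing the data.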
